A study of Homo sapiens with 6 samples.

Results

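Peaks of N1-methylguanosine (m1G) enrichment in genes for long noncoding RNAs (lncRNAs) were taken from the 2 peak lists of an m1G immunoprecipitation experiment. A region was included when it lay inside the span of a RefSeq lncRNA gene (GRCh38.p14) and touched no protein-coding gene span, and the genes NEAT1, MALAT1 and GAS5 were left out. This gave 354 of 24695 regions in all. Of these, 256 were among the 18431 peaks called with MeTDiff (1.39%, 95% Wilson interval 1.23 to 1.57), and 98 were among the 6264 summits called with MACS2 (1.56%, interval 1.29 to 1.90). Intervals here cover counting error only, and nearby peaks of a gene are not independent.

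PANC-1 cells, an established line of pancreatic ductal adenocarcinoma, were either controls (WT control in the labels) or were depleted of TRMT5 for 4 days by transfection with siRNA. TRMT5 is the enzyme that methylates the guanosine next to the anticodon of tRNAs. PolyA+ RNA was fragmented and m1G-bearing fragments were pulled down with an anti-m1G antibody, and the labels also name an anti-GFP antibody. Control cells gave 1 input library and 2 precipitates, and TRMT5-depleted cells also gave 1 input and 2 precipitates, all in 1 batch. Neither peak list separates the conditions or the libraries, so no value has an error over replicates and a change on TRMT5 loss was not analysed here.

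Long noncoding RNAs are transcribed by RNA polymerase II, usually capped, often spliced and polyadenylated, and not translated into a known protein. Some host small nucleolar RNAs (snoRNAs) or microRNAs in their introns or exons, some are transcribed away from the start of a coding gene on the opposite strand, and some act on chromatin or bind proteins. m1G carries a methyl group on the face of the base that pairs with cytosine, and it is best known from tRNA.

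Sequences of a few regions that the results turn on are given here for the windows around a transcript start that RefSeq (GRCh38.p14) supplies, each of 300 bases, written 5′ to 3′ on the strand of the named gene. Capitals mark the bases covered by the blocks of a MeTDiff peak. CHASERR is shown because it ranked high in both lists. Its window is chr15:92883046-92883345 (plus strand), and 141 bases belonged to the peak, which began further upstream inside the gene span.
CHASERR: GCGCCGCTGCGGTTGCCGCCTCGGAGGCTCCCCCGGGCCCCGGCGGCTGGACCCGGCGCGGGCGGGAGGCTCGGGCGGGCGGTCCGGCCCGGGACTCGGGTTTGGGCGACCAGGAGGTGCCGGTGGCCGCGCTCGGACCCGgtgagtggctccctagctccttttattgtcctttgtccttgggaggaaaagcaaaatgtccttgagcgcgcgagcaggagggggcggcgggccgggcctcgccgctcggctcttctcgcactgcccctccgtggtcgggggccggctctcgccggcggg
MIR31HG is shown because a summit stood at the very start of the gene (chr9:21559749-21560048, minus strand, 53 bases covered).
MIR31HG: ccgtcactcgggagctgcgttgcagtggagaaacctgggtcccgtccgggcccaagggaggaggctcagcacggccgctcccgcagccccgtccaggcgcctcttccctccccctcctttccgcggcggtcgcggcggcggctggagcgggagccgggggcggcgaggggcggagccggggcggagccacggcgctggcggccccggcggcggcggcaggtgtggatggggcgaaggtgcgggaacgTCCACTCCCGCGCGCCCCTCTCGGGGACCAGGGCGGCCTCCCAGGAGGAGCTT
MAPKAPK5-AS1 is shown because a summit and a peak on its own strand coincided inside it, close to the start of its coding neighbour (chr12:111841881-111842180, minus strand, 76 bases covered).
MAPKAPK5-AS1: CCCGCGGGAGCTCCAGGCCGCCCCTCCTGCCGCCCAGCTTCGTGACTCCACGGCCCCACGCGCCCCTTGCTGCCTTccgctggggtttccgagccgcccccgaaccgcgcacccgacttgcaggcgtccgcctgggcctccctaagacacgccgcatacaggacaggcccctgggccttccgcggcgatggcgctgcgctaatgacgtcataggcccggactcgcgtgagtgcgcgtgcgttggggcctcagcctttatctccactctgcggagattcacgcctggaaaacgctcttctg
The next windows belong to coding genes and show the reverse arrangement, where a region counted in a lncRNA gene lay on the strand of the coding neighbour. The window of RALY (chr20:33993661-33993960, plus strand) had 216 bases under the peak around the summit in RALY-AS1.
RALY: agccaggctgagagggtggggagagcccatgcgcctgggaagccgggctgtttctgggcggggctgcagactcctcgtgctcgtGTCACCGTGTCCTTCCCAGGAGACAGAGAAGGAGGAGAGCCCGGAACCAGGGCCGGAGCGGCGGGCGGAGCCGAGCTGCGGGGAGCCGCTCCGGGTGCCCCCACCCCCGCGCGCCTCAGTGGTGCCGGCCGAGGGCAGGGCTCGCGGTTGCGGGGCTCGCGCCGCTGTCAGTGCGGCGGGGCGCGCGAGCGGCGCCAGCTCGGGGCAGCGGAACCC
The window of MAN2A1 (chr5:109689677-109689976, plus strand) had 188 bases under a peak in MAN2A1-DT.
MAN2A1: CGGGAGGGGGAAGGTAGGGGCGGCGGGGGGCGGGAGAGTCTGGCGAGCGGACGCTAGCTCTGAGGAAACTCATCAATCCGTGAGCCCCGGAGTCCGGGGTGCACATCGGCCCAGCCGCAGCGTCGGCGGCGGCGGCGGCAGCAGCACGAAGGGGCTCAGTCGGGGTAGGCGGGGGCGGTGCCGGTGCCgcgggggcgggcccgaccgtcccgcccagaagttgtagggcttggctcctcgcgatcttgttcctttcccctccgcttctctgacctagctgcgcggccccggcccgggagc

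All 5 windows were rich in G and C, between 69.3% and 77.7%. The covered bases of the CHASERR window were 83.7% G or C and 46.8% G. The share of G alone differed among the others. It was 32.1% for MIR31HG, 25% for MAPKAPK5-AS1, 43.5% for RALY and 47.9% for MAN2A1. Across the 27 windows of lncRNA genes overlapped by a peak of the same gene and strand, the median GC content was 70.7%, ranging from 38% to 80%. The median was 50% over all 12917 lncRNA windows and 62.3% over the 22198 windows of protein-coding genes. The rule required neither a G-rich sequence nor a start site, but these windows were picked by an overlap, so the values are descriptive.

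Peaks were found in few lncRNA genes. Counting every lncRNA span that held one, a MeTDiff peak lay in 164 of 18300 lncRNA genes (0.896%), while 37.2% of protein-coding genes and 21.5% of both kinds together held one. A MACS2 summit lay in 89 lncRNA genes (0.486%), against 18% of protein-coding genes and 10.3% of both. The lncRNA counts took only regions clear of coding spans, which makes them lower by construction. The lists hold no RNA levels either, so a gene without a peak cannot be told from one with too little RNA. In all 215 lncRNA genes had a peak or a summit, and 38 had both, which is 23.2% of the genes with a peak and 42.7% of those with a summit. A further 1486 MeTDiff peaks and 319 summits touched a lncRNA span that a coding span shared there, and they were not members.

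The folds of lncRNA peaks were slightly higher than those of peaks in coding genes, and the scores of lncRNA summits were lower. The fold enrichment that the authors' MeTDiff list gives for each peak (precipitate relative to input) had a median of 4.67 (interval 4.33 to 5.50) and ran from 1.5 to 37.0. The median was 4.16 (4.07 to 4.24) for the 15001 peaks inside 1 protein-coding gene only. Folds of 10 or more were given to 40 of the 256 lncRNA peaks (15.6%, 11.7 to 20.6) and to 12.5% of the coding peaks (12 to 13). MACS2 scores are −log10 values of either p or q, so they measure significance and not the size of the enrichment. Their median was 13.1 (10.4 to 15.3) for lncRNA summits and 16.5 (16.1 to 16.9) for the 5096 coding ones. The median MeTDiff false discovery rate was 0.000977 (0.000646 to 0.00148) for lncRNA peaks. For the whole MeTDiff list it was 0.00129, inside that interval. The highest score in a lncRNA gene was 70.4, and coding summits reached 112. Fewer lncRNA peaks were split: 43 (16.8%, 12.7 to 21.9) had more than 1 block, against 33.7% (33.0 to 34.5) of the coding peaks.

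**Figure D1:**
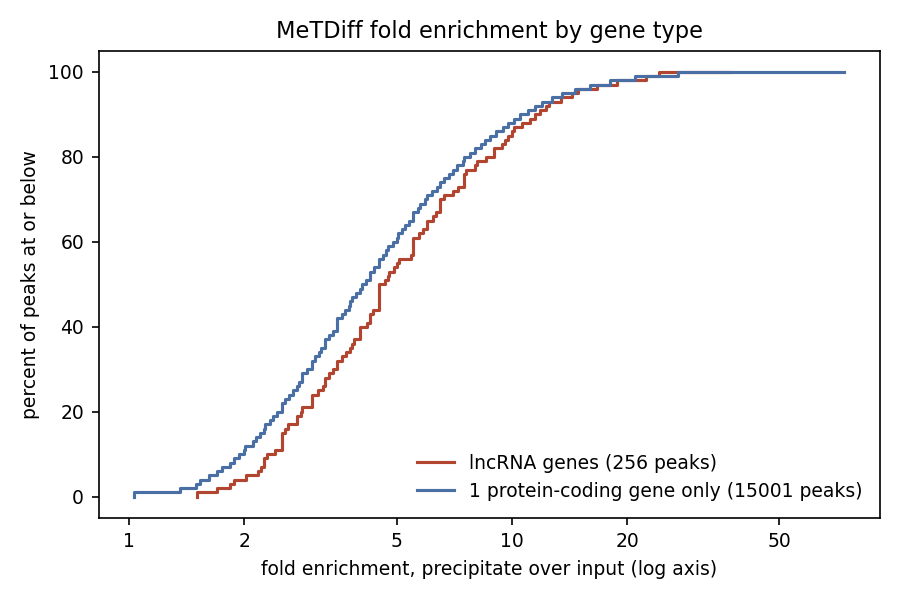
Cumulative share of MeTDiff peaks (vertical axis, percent) at or below each fold enrichment (horizontal axis, log scale) for 256 peaks in lncRNA genes and 15001 peaks in 1 protein-coding gene only. The lncRNA curve lies to the right through the middle of the range, with medians of 4.67 and 4.16, and the curves meet above 10-fold.

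The 10 lncRNA genes with the largest folds were TBX2-AS1, MIR1915HG, ZFAS1, CHASERR, MEG3, TWSG1-DT, SNHG14, SNHG29, FBXL19-AS1 and LINC01128. The highest fold, 37.0 with a false discovery rate (FDR) of 0.00126, was in TBX2-AS1 (chr17:61393552-61393745), a transcript named as antisense to the developmental transcription factor gene TBX2. The peak was on the minus strand, lay 721 bp from the coding span of BCAS3 and held a summit of score 14.8. Second was MIR1915HG, the host gene of miR-1915, at 30.8 (chr10:21494607-21495007). It held a summit of 30.2, while the other 3 peaks of the gene had folds of 3.79, 4.92 and 6.0, so a single stretch in the middle of the gene stood out.

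CHASERR, which lies upstream of the chromatin remodeller gene CHD2 and is known to restrain it, had 1 peak of 23.7-fold with an FDR of 1.86e-05 (chr15:92882893-92883638). Its midpoint was 223 bp from the 5′ end of the gene, and the summit inside scored 44.2; only 4 lncRNA summits scored higher. ZFAS1, a snoRNA host transcribed away from ZNFX1, had a peak of 25-fold in 2 blocks (chr20:49278676-49279140). The summit of ZFAS1, of score 28.6, fell between those blocks, in the span of the snoRNA gene SNORD12C.

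TWSG1-DT, a divergent transcript at the BMP regulator gene TWSG1, reached 22.5-fold 274 bp from its 5′ end. FBXL19-AS1 had 1 peak of 18.0-fold that held a summit of 11.3, and LINC01128 had 3 peaks of 17.0-, 4.50- and 2.00-fold. SNHG29, another snoRNA host, had peaks of 20.5-fold and 2.17-fold. In MIR1915HG, SNHG29 and LINC01128, a gene's own peaks thus ran from below the lncRNA median to near the top of the list.

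**Figure D2:**
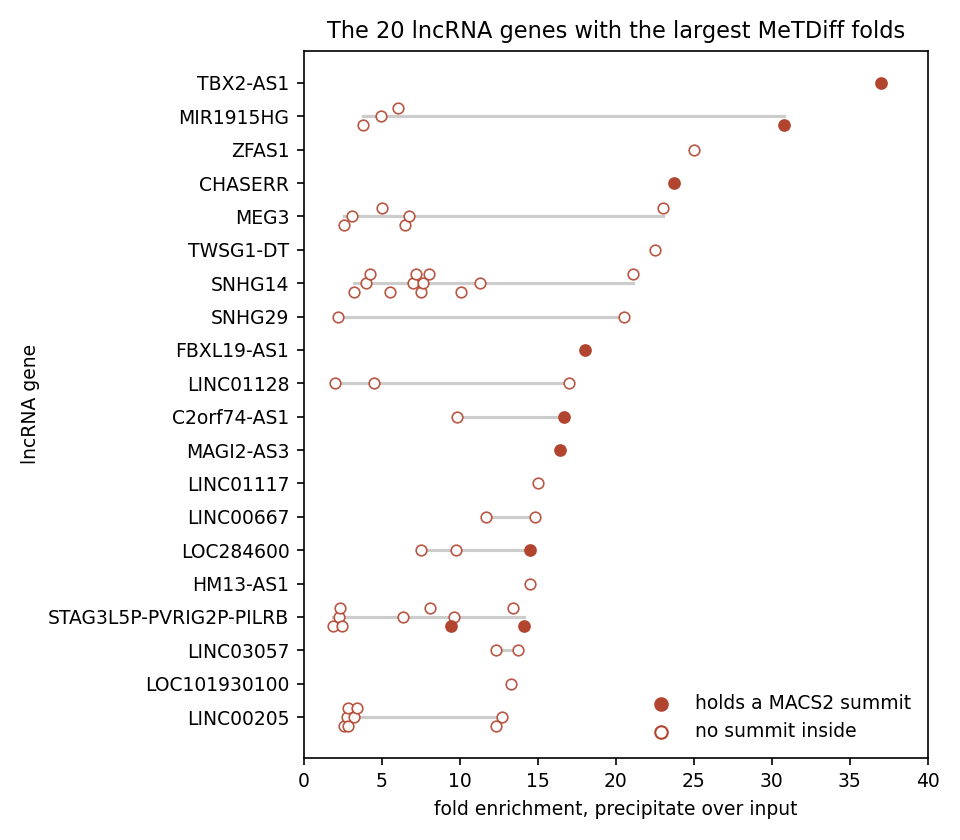
MeTDiff fold enrichment (horizontal axis) of every peak of the 20 lncRNA genes with the largest folds, 1 row per gene; filled points hold a MACS2 summit, grey lines join a gene's peaks, and points of genes with over 3 peaks are spread vertically for legibility. TBX2-AS1 leads at 37.0, and MIR1915HG, MEG3 and SNHG14 each combine 1 peak above 20-fold with several below 12-fold.

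Most lncRNA genes had a single peak. Of the 256 peaks, 251 could be given to 1 lncRNA gene, 152 genes in all. Of these genes 100 had 1 peak, 35 had 2, and 17 had 3 or more, which together held 81 peaks. Summits were sparser, with 81 genes holding 1 and 6 holding more.

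SNHG14 had the most peaks. It is the very long, paternally expressed transcript of the Prader-Willi region that hosts the SNORD116 and SNORD115 snoRNA clusters. Its 12 peaks had a median of 7.34-fold and ranged from 3.21 to 21.1, and they were bunched between relative positions 0.42 and 0.48 of a span of 595855 bp, where 0 is the 5′ end. Blocks of 3 of them overlapped the snoRNA genes SNORD116-15, SNORD116-18 and SNORD116-23, with folds of 21.1, 10.1 and 7.0. SNHG14 also had 3 summits, of 17.6, 16.0 and 16.0, in the same stretch, and 0 of them were inside the blocks of a MeTDiff peak.

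MEG3, an imprinted, maternally expressed RNA with reported growth-restraining activity, showed another layout. Of its 6 peaks, 4 lay at relative positions 0.81 to 1.00, with folds of 6.50, 23.0, 5.00 and 2.55 in order along the gene. Those of 6.50- and 5.00-fold were weakly called, with FDRs of 0.0363 and 0.0355 against a lncRNA median of 0.000977. The others, of 6.76 and 3.09, lay at 0.26 and 0.29. The 23.0-fold peak was at chr14:100858899-100859049. MEG3 had summits of 17.4 and 3.28, near the 3′ end and near the first group of peaks, and neither was inside a peak. MEG8, from the same imprinted domain, held a peak of 7.50-fold. A peak of 5.67-fold in the span of MEG9 was, by its strand, that of the overlapping LOC105370670.

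The readthrough transcript STAG3L5P-PVRIG2P-PILRB had 10 peaks of 1.86- to 14.1-fold and 3 summits, 2 of them inside peaks. The peaks carried more than 1 gene ID. The 9.40-fold peak overlapped those of 2.33- and 9.62-fold on the same strand, so the 10 peaks are not 10 separate sites. Blocks of 4 of its peaks lay over the pseudogene PVRIG2P, where reads of related copies can be hard to place. LINC00205 had 8 peaks, of which those at relative positions 0.02 and 0.63 were 12.3- and 12.7-fold and the other 6 lay between 2.55- and 3.38-fold. BAIAP2-DT, divergent from the gene of an actin-regulating scaffold protein, had 5 peaks of 2.44- to 10.2-fold, the strongest 87 bp from the 5′ end.

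**Figure D3:**
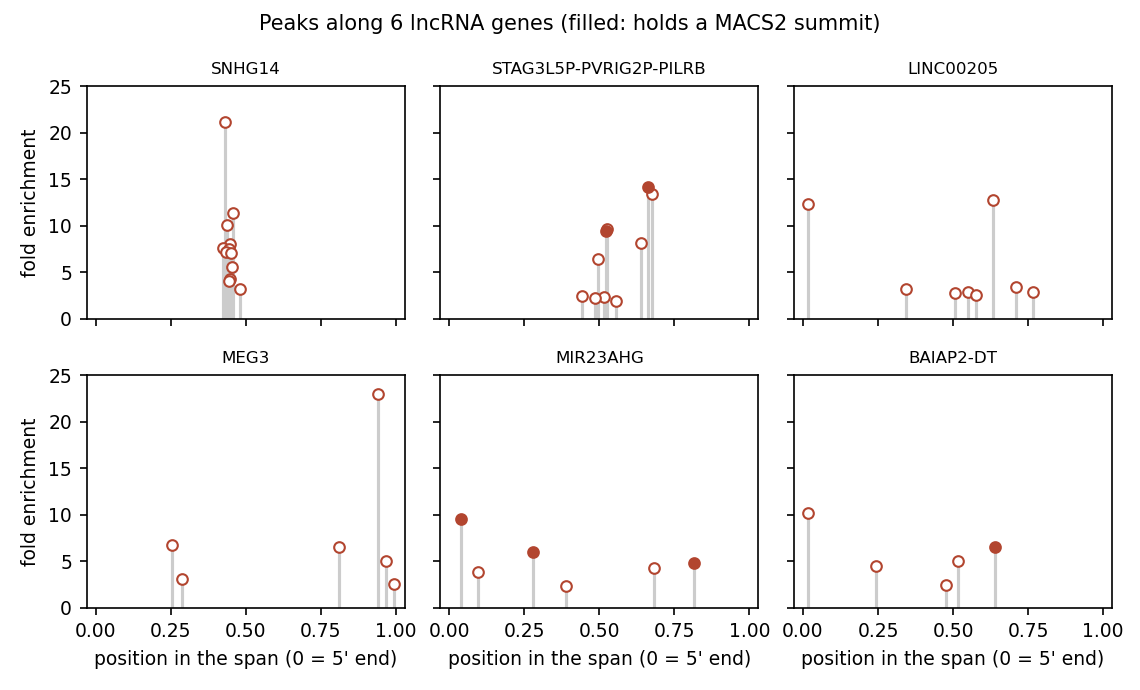
Fold enrichment (vertical axis) against the position of the peak midpoint in the gene span (horizontal axis, from 0 at the 5′ end to 1 at the 3′ end) for the 6 lncRNA genes drawn; filled points hold a MACS2 summit. SNHG14 peaks crowd into one stretch from 0.42 to 0.48, MEG3 peaks gather toward the 3′ end, and 3 of the 6 MIR23AHG peaks hold a summit.

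Host genes of snoRNAs were the class with the largest share of genes holding peaks. Of 29 such genes named SNHG, 9 (31.0%) had a MeTDiff peak and 4 (13.8%) a summit, against 0.896% and 0.486% of all lncRNA genes. These transcripts are spliced to release snoRNAs that guide modification of ribosomal and other RNAs, and many are abundant. SNHG5 had a peak of 12.2-fold that held a summit of 19.6, and a second peak of 3.0-fold. SNHG16 had 1 peak of 8.42-fold and SNHG17 1 of 6.29-fold. SNHG22 had peaks of 5.17- and 2.50-fold over the small Cajal body RNA gene SCARNA17, both with an FDR of 4.27e-10. The 2.2-fold peak of SNHG12 overlapped SNORA61, and SNHG32 was at the bottom with 1.5-fold. In all, blocks of 7 of the 256 peaks lay over a small RNA gene, and the share over the whole list was not computed.

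Of 87 microRNA host genes, 5 (5.75%) had a MeTDiff peak and 5 (5.75%) a summit, against 0.896% and 0.486% of all lncRNA genes. In all, 7 of the hosts had either. MIR23AHG carries the hairpins of miR-23a, miR-27a and miR-24-2, a cluster with reported roles in the cell cycle and differentiation. Its 6 peaks ran from 2.38- to 9.50-fold. The peaks of 9.50-, 6.0- and 4.80-fold held its 3 summits, of 28.1, 8.95 and 10.5, so each of its summits was in a peak. The 3p products are shown, with the seed (bases 2 to 8) in capitals, because their hairpins lay between the peaks of 4.25- and 4.80-fold. The 5p products of these hairpins are not shown.
hsa-miR-24-3p: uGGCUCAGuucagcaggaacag
hsa-miR-27a-3p: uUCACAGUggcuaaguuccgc
hsa-miR-23a-3p: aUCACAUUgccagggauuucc
The 4.80-fold peak was 58 bp from the hairpin of MIR24-2 and 211 bp from that of MIR27A, and the 4.25-fold peak was 320 bp from that of MIR23A. No seed was identical among these 3p products, though those of miR-27a-3p and miR-23a-3p both began with UCACA. MIR503HG had peaks of 12.3- and 5.50-fold, the first 492 bp from the MIR503 hairpin. MIR210HG, whose microRNA is induced by low oxygen, had peaks of 8.67- and 1.5-fold and a summit of 6.65 outside them, and the nearest peak block was 133 bp from the hairpin. Blocks of 0 of the 256 lncRNA peaks overlapped a microRNA hairpin, and the share over the whole list was not computed.

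Genes named as antisense to a coding gene made up the largest group with peaks: 39 of 2047 (1.91%) had a MeTDiff peak and 25 a summit. Over all lncRNA genes the shares were 0.896% with a peak and 0.486% with a summit. Of 2309 genes with LINC names 31 (1.34%) had a peak and 7 a summit. Of 592 divergent transcripts 28 (4.73%) had a peak and 10 a summit, and of 12385 genes known only by a LOC number 26 (0.210%) had a peak and 26 a summit. Median folds were 5.00 for antisense, 4.00 for divergent, 4.25 for LINC and 5.50 for LOC genes. Of 86 transcripts named as intronic 0 had either. Regions touching a coding span were left out, so genes that overlap coding genes had less span in which a region could count. The shares of the classes are therefore not like for like.

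Among lncRNAs tied to cancer or the pancreas, 11 of 47 had a peak or a summit: 10 a MeTDiff peak (21.3%, against 0.896% of all lncRNA genes) and 5 a summit (10.6%, against 0.486%). The list was written by hand from well-studied genes, and nothing is read from its share. NORAD, which binds Pumilio proteins and guards chromosome number, had a peak of 6.23-fold that held a summit of 15.7, 363 bp from its 5′ end. MIR31HG, the host gene of miR-31, had a summit of 15.3 that stood 5 bp from its 5′ end in a 4.75-fold peak crossing the gene's edge. CRNDE, often raised in colorectal tumours, had peaks of 4.50- and 2.25-fold, and LINC00673, at a locus linked to inherited risk of pancreatic cancer, had 4.33- and 2.75-fold at its opposite ends. OIP5-AS1 had 4.00- and 2.25-fold, TP53TG1, a transcript induced by p53, 4.75-fold, MIR22HG 4.00-fold and DANCR 2.83-fold. Apart from MEG3 and ZFAS1, the largest fold of this list was the 8.67 of MIR210HG. H19, HOTAIR, PVT1 and UCA1 were among the 36 without a member region, and regions shared with a coding span were not counted. Of 15 nuclear or chromatin-acting lncRNAs, CHASERR and SNHG14 had a peak on their own strand, and MEG8, whose strand was not known, also held one. Beside this, 0.896% of all lncRNA genes had a span that held one. MEG9 held only the peak given above to LOC105370670.

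Along the whole gene span, lncRNA peaks stood nearer the 5′ end than coding peaks did. Stretches of a lncRNA span that a coding span shared could hold no member, which limits where these peaks can fall. Position could be read for 201 lncRNA peaks on the strand of their gene and for 12038 coding peaks. The midpoint was within 500 bp of the 5′ end for 54 lncRNA peaks (26.9%, 21.2 to 33.4) and for 15.6% (14.9 to 16.2) of coding peaks. The median relative position was 0.39 for lncRNA and 0.65 for coding genes. Only 11 lncRNA peaks (5.47%, 3.08 to 9.53) were within 500 bp of the 3′ end, a share whose interval holds the coding value of 6.42%. When the span was cut into 5 equal parts, lncRNA peaks fell 37.8, 12.9, 20.9, 13.4 and 14.9% from 5′ to 3′, and coding peaks 24.9, 9.70, 11.7, 16.9 and 36.9%. The last of these parts thus held the most coding peaks and not the most lncRNA peaks.

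**Figure D4:**
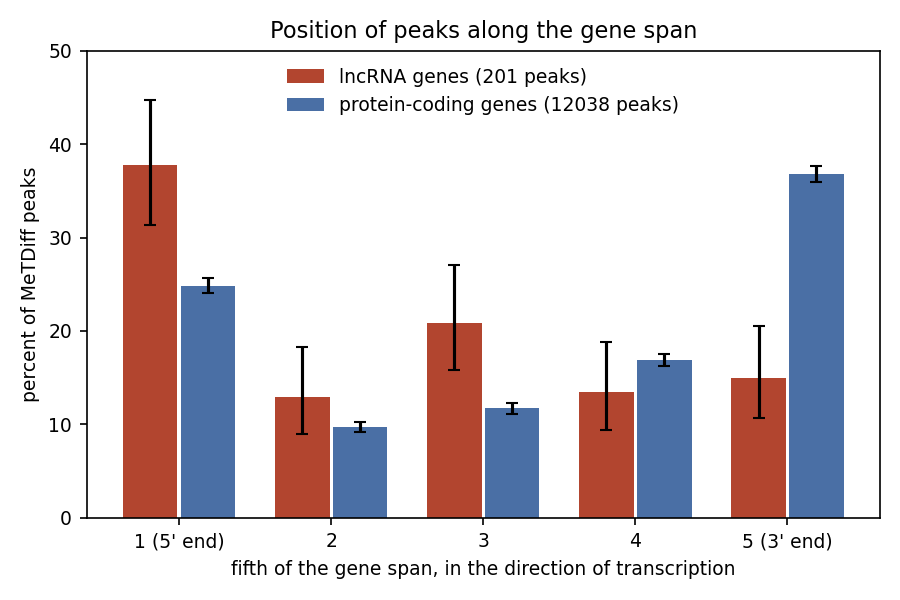
Share of MeTDiff peaks (vertical axis, percent) in each of 5 equal parts of the gene span (horizontal axis, 5′ to 3′) for 201 peaks in lncRNA genes and 12038 in protein-coding genes; bars are shares and whiskers 95% Wilson intervals. The first part holds 37.8% of lncRNA peaks, and the last part holds 14.9% of lncRNA and 36.9% of coding peaks.

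Gene length went with part of this pattern. The median span was 9303 bp around lncRNA peaks and 28529 bp around coding ones. In genes with spans under 10000 bp, the 5′ share was 26.7% (19.1 to 35.8) of 105 lncRNA peaks and 20.7% (19 to 22.4) of 2276 coding peaks, and these intervals overlap. In the same genes the last of the 5 parts held 15.2% (9.60 to 23.3) of lncRNA and 23.2% (21.6 to 25) of coding peaks, which also overlap. With only the strongest peak of each gene, the 5′ share was 37.5% (29.4 to 46.4) of 120 lncRNA and 26.1% (25 to 27.4) of 5240 coding genes. Spans stand in for transcripts here, since exon models were not used.

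Within the lncRNA set, peaks near the 5′ end were also somewhat stronger than those in the interior. The medians were 5.63-fold (4.33 to 7.25) and 4.71 (4.25 to 5.50), with overlapping intervals. The 11 lncRNA peaks near the 3′ end had a median of 6-fold (2.55 to 9), and this interval holds the medians of 5.63 and 4.71. The 5′ peaks were therefore not shown to be the strongest. In coding genes the medians were 5.45 at the 5′ end, 3.92 in the interior and 3.63 at the 3′ end. Examples at the 5′ end were CHASERR, TWSG1-DT, LINC01117 at 15-fold and 122 bp, and LINC00667 at 14.8-fold and 101 bp. EP300-AS1, at 9.50-fold near its 5′ end, had the lowest FDR of all lncRNA peaks, 6.31e-14. Among 82 lncRNA summits with a position, 24 (29.3%, 20.5 to 39.9) were at the 5′ end and 2 at the 3′ end. The coding share at the 5′ end was 22.8%, inside that interval. Median scores of lncRNA summits were lower at the 5′ end, at 9.90 (6.65 to 19.6), than in the interior, at 13.4 (10.4 to 16.0). These intervals overlap too.

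MeTDiff gives a strand, and it was that of the lncRNA gene for 201 of 217 peaks with a known gene strand (92.6%, 88.4 to 95.4). The other 16 ran opposite, with a median fold of 4.13 against 5.00, and 39 lay in genes whose strand was not known. Of the 201, 12 had been given to a lncRNA gene by their strand, so they match by construction. Each peak in the list also carries a gene ID, so strand and gene may not be independent. The share is therefore descriptive. C2orf74-AS1 had both of its peaks, of 16.7- and 9.83-fold, on the opposite strand and over the pseudogene AHSA2P. The first of these held a summit of 42.9. At LINC00667, a plus-strand peak of 14.8-fold and a minus-strand peak of 11.7-fold overlapped at the 5′ end, and both overlapped the RefSeq start window of LINC00526 on the minus strand. Of 12 pairs of overlapping lncRNA peaks, 6 were on the same strand and 6 on opposite strands. Blocks of 21 lncRNA peaks lay over a pseudogene, and the share over the whole list was not computed.

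Many regions lay close to a coding gene. Of the MeTDiff peaks, 67 (26.2%, 21.2 to 31.9) were within 1000 bp of a protein-coding span, and of the summits 50 of 98 (51.0%, 41.3 to 60.7), so the lists differed here. Of the 67 peaks, 51 were upstream of the 5′ end of the coding gene, and 44 of these were on the opposite strand to it and 7 on its strand. Of the 50 summits, 39 were upstream of a coding 5′ end, and 20 of all summits were within 100 bp of a coding span. Among lncRNA peaks at least 1000 bp from coding genes, the share at the lncRNA 5′ end was 18.9% (13.4 to 26) of 148. Its interval holds the 15.6% of coding peaks at the 5′ end of their genes. Part of the lncRNA 5′ share thus came from peaks beside coding genes.

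The highest summits show how close these neighbours were. RALY-AS1 scored 58.0 at a site 115 bp upstream of RALY, an RNA-binding protein gene, and the 11-fold peak around that summit was on the strand of RALY (its bases are the capitals of the RALY window). LOC107985946 scored 50.2 at 80 bp from UBXN4, and LOC124903884 scored 47.4 at 16 bp from the kinase gene RPS6KA1, both upstream and without a MeTDiff peak. TNK2-AS1 scored 44.1 at 674 bp and STXBP5-AS1 38.2 at 513 bp from their coding partners. The TNK2-AS1 summit fell outside the blocks, but within the start-to-end span, of a 6.17-fold peak on the strand of TNK2. The other peak of TNK2-AS1, of 3.33-fold, was on the strand of the lncRNA. Summits carry no strand, so those outside the blocks of a peak cannot be assigned to the lncRNA or to an upstream start of the coding gene.

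Other high summits were far from coding genes. The highest, 70.4 in LOC107984507, was 34575 bp from ERC1 and in no MeTDiff peak. LOC105370062 had summits of 43.9 and 22.4, 8121 and 8483 bp from a coding span, and LINC03057 had one of 31.3 at 10478 bp. Scores near and far from coding genes were alike in the middle, with medians of 12.8 (9.43 to 19.9) and 13.3 (8.95 to 16.0).

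**Figure D5:**
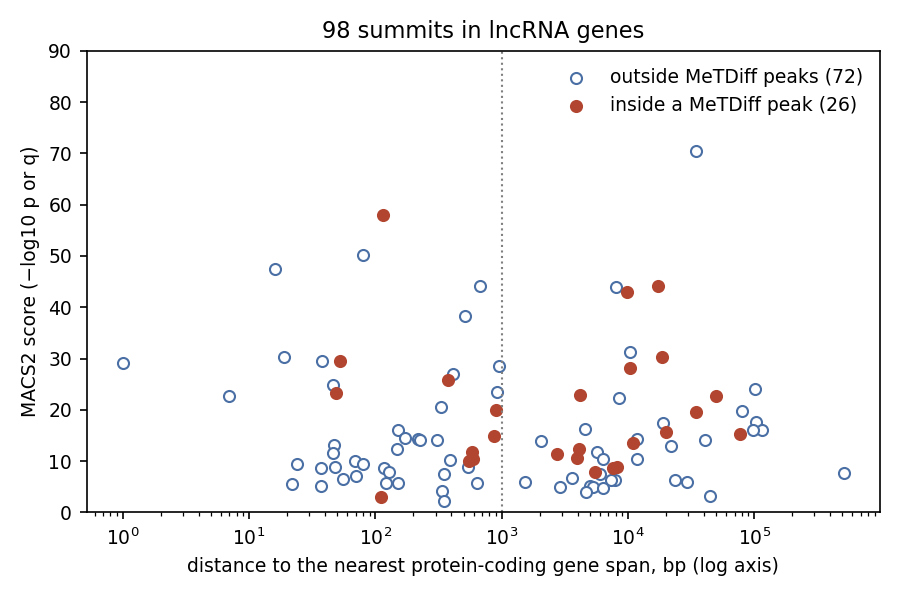
MACS2 score (vertical axis, −log10 of p or q) of 98 summits in lncRNA genes against the distance to the nearest protein-coding gene span (horizontal axis, bp, log scale); the dotted line marks 1000 bp and filled points lie inside a MeTDiff peak. Of the 50 summits left of the line 10 are filled, and of the 48 on the right 16 are filled.

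The lists coincided in part. Of the 98 lncRNA summits, 26 (26.5%, 18.8 to 36.0) were inside the blocks of a MeTDiff peak, against 37.3% (36.0 to 38.7) of the coding summits. The share was 20% (11.2 to 33.0) within 1000 bp of a coding gene and 33.3% (21.7 to 47.5) further away, with overlapping intervals. Turned round, 22 of the 256 lncRNA peaks (8.59%, 5.74 to 12.7) held a summit. Their median fold was 9.75 (6.23 to 16.4), against 4.50 (4.00 to 4.77) for the 234 without. The lists do not say which libraries each was called from, so they cannot be taken as independent of each other.

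Genes where they coincided included some at a lncRNA's own start. LINC00471 had a summit of 22.9 in a peak of 10.7-fold, 95 bp from its 5′ end. RENO1 had one of 22.7 in a peak of 10.0-fold, 101 bp from its 5′ end. MAGI2-AS3 had one of 25.9 in a peak of 16.4-fold, 1086 bp into the gene, and the peak of each of these genes was on the strand of the lncRNA. MAPKAPK5-AS1, beside the gene of the stress kinase MAPKAPK5, had a summit of 23.4 at 49 bp from the coding span, in a peak of 14.8-fold on the lncRNA's strand. In C1QTNF3-AMACR a summit of 29.5 lay 53 bp from AMACR in a peak of 10.2-fold. That peak was on the strand of AMACR and covered 104 bases of its start window. The peaks around the MAPKAPK5-AS1 and C1QTNF3-AMACR summits were not themselves members. Of the 26 summits inside a peak, the strand of the peak was that of the lncRNA gene in 20, the opposite in 3 and not known in 3. Of the 26, 5 lay only inside peaks that were not members.

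Marker genes of the labelled cell type and of others were also looked up. Of 7 ductal markers 6 held a MeTDiff peak, and of 3 mesenchymal markers 2 did, where 37.2% of all protein-coding genes held one. By contrast, 0 of 4 acinar, 0 of 4 endocrine and 0 of 3 endothelial markers did. Of 4 stroma markers 2 and of 3 immune markers 1 held a peak, and their part in the lncRNA peaks was not tested.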

How the data were processed

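The members and gene lists were chosen with earlier results of these data known. Per the submitters' processing notes, tools included STAR 2.7.1, SAMtools, Picard, bedtools and MACS2 2.2.5, with build GRCh38; their roles and settings are not stated. The deposited MACS2 list gives 1-bp summits scored as −log10 of p or q, without saying which. The deposited MeTDiff list gives blocks, strand, a p-value, the log10 of its FDR and the fold (ratio of precipitate to input), as judged from column order and values. No counts are given, so depth is unknown.

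Regions were placed by span in the RefSeq gene table (GRCh38.p14), in which 4 of 59792 entries without a position were not used. Gene strand was known for 11462 of 18303 lncRNA genes, from the RefSeq window table. Peaks in several lncRNA spans (17) took the gene on their strand, which resolved 12. Midpoints gave positions. Shares have 95% Wilson intervals and medians order-statistic intervals; no test was run over peaks, and the code was checked on simulated data (Python 3.11.15, pandas 2.3.3, SciPy 1.17.1). Named genes are the 10 with the largest folds or scores, those with most peaks or summits, the 10 highest summits inside a peak and the listed genes, with examples chosen after their values were seen. Some gene lists were written for an earlier analysis of these files.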

Additional observations from a re-analysis of the deposited data

How the results depend on the processing

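Of 37 alternative settings, 25 left a value within the allowance and 12 moved it; those on 1 peak per gene at the ends, span length, distance of end shares and overlap to coding genes, and the entry without a position were chosen after seeing the data. The number of lncRNA peaks ranged from 189 to 282 and their median fold from 4.50 to 5.00, except 5.71 with 1 peak per gene. Summits numbered 48 at least 1000 bp from coding genes and 61 at a score of 10 or more, where the median score was 19.6. The share of summits in a MeTDiff peak was 37.8% by the start-to-end span and 55.1% within 100 bp of a block. The 5′ share was 13.9% within 200 bp, 36.8% within 1000 bp, 37.5% with 1 peak per gene and 18.9% at least 1000 bp from coding genes; the coding share was 9.09% within 200 bp and 20.1% within 1000 bp. The 3′ share was 0.995% within 200 bp and 12.9% within 1000 bp, beside coding shares of 1.69% and 12.8%; with the last 0.1 of the span it was 6.97%, beside 24.7%. No paired analysis was possible because the peak lists hold no values per library. Depth is unknown, so what it limits cannot be stated.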

Other observations

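After EP300-AS1, the lowest FDR of a lncRNA peak was in RASAL2-AS1 at 5.00-fold with an FDR of 5.01e-12, in a transcript beside the gene of a Ras GTPase-activating protein. That peak overlapped the start windows of both RASAL2-AS1 and RASAL2. LOC100288175 had peaks of 4.67- and 5.00-fold with the same FDR of 4.57e-09. KDSR-DT, divergent from a sphingolipid enzyme gene, had a peak of 2.50-fold with an FDR of 2.29e-08, and CRNDE one of 4.50-fold with 3.09e-08. Low FDRs were not limited to moderate folds, since the 16.7- and 9.83-fold peaks of C2orf74-AS1 both had 2.69e-08 and the 12.2-fold peak of SNHG5 had 2.04e-08. Of the 256 lncRNA peaks, 26 (10.2%, 7.03 to 14.5) carried a gene ID that also had a peak touching a protein-coding span.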
